A study of Mus musculus with 6 samples.

Results

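The genes described here code for the factors that fold and place sarcomeric myosin and for those that set the length of the actin thin filament, in satellite cells (SCs), the muscle stem cells, of mice with and without Cre-driven deletion of the gene for NF-YA, a subunit of the factor NF-Y. They were chosen by name, as 10 of the 35976 genes in the deposited tables, and all 10 passed the filter on low counts, which asks for a count above 10 in 2 or more of the 6 libraries. The myosin chaperones are Smyd1, Unc45a, Unc45b, Hsp90aa1 and Hsp90ab1, and the thin-filament length regulators are Lmod1, Lmod2, Lmod3, Tmod1 and Tmod4.

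RNA was sequenced from cultured SCs, as 3 libraries of control (NF-YA fl/fl) mice and 3 of NF-YA cKO mice. Both groups carried floxed NF-YA alleles and received tamoxifen. Only NF-YA cKO mice carried Pax7-CreERT2, whose Cre is active in Pax7-expressing cells alone, so that cells of other types keep the gene. The labels give an age of 5 to 7 weeks and tamoxifen at 20 mg/ml, while the methods describe mice of 6 to 8 weeks, 5 daily injections, harvest 7 days after the last one, and collection after 4 days in growth medium, of cells purified by magnetic depletion of CD31, CD45, CD11b and Sca1 positive cells. The question was how loss of NF-YA in SCs changes their transcripts.

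Myosin heads do not fold without help. UNC45B binds the myosin motor together with HSP90, SMYD1 is a muscle methyltransferase that also binds myosin and HSP90, and UNC45A is the form found in most cells. At the pointed end of the thin filament, tropomodulins cap and limit actin while leiomodins nucleate and elongate it, LMOD2 and LMOD3 in striated and LMOD1 in smooth muscle, and TMOD1 and TMOD4 are the tropomodulins of striated muscle.

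NF-Y binds the CCAAT box. The promoters of 7 of the 10 genes were found in the RefSeq table (GRCm38.p6, 250 bases before to 50 after the start), and those of Hsp90aa1, Hsp90ab1 and Lmod3 were not analysed here. Below are 2 promoters that hold a CCAAT box and 2 of strongly lower genes that do not, read along the gene. Capitals mark CCAAT, written ATTGG where it lies on the other strand, and the E-box CANNTG, the motif of myogenic bHLH factors.
Smyd1, chr6:71262232-71262531, minus strand: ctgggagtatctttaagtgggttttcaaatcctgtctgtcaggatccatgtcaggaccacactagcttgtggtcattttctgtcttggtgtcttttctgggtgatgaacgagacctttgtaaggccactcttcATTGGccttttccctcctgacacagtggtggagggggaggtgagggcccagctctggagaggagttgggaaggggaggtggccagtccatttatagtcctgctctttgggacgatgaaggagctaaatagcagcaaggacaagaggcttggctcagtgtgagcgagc
Lmod1, chr1:135324563-135324862, plus strand: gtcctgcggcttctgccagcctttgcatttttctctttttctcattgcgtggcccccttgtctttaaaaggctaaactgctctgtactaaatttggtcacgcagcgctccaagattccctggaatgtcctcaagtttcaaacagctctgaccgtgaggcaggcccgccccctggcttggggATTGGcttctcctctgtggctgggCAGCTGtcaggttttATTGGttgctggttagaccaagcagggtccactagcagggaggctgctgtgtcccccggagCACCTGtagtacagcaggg
Unc45b, chr11:82911003-82911302, plus strand: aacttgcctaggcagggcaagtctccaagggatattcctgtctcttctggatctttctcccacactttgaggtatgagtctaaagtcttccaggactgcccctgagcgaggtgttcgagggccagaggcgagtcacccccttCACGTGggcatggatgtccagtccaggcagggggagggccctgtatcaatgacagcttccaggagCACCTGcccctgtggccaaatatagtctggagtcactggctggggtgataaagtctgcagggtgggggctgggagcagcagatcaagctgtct
Lmod2, chr6:24597521-24597820, plus strand: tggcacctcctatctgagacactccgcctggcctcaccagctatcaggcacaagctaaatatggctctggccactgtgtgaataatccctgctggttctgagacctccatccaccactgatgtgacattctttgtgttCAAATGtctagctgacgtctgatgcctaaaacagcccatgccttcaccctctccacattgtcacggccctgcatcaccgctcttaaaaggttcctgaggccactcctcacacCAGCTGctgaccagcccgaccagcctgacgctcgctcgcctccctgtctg
A CCAAT box was in the promoters of Smyd1 and Lmod1, 2 of 7, against 37.4% of the 32851 promoters of the table. In Smyd1 the box began 117 bases before the start, and in Lmod1 the boxes began 69 and 30 bases before it, all on the other strand. With the window narrowed to 100 bases before the start only Lmod1 kept a CCAAT box, against 23.4% of all promoters. An E-box was in 4 of the 7 promoters (Lmod1, Lmod2, Tmod4 and Unc45b), against 72.3% of all, and the MCAT motif CATTCC in Lmod1 and Tmod1, against 14.7%. None of the 7 held GAANNTTC, a pair of heat shock element units (7.86% of all), the MEF2 motif (3.19%) or the CArG box (1.63%). Both strands were searched, and matches could overlap. These counts describe letters in the windows only.

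The libraries held 26936230 to 41118984 expected counts, so that 3 counts corresponded to 0.0730 to 0.111 CPM (TMM-scaled counts by library size, the unit used below). The transcript entry that the authors added for the deleted NF-YA allele took 22.3% to 34.2% of the Nfya counts in NF-YA cKO and 0 counts in NF-YA fl/fl. The whole Nfya count did not pass the test (27.5 ± 0.874 against 28.7 ± 7.20 CPM, SD, n = 3, FDR = 0.814). Of 7 satellite cell and myoblast markers tested, Cdh15 (48.2 against 165 CPM on average) and Des (327 against 1392 CPM) were lower and none was higher, with Pax7 at 145 to 201 CPM in NF-YA cKO and 73.5 to 105 CPM in the NF-YA fl/fl libraries. The 8 markers of this list summed to 1450 to 1631 CPM in NF-YA cKO and 2223 to 3878 CPM in the controls. Without Des, the most abundant of them, the sums overlapped, at 1155 to 1257 CPM in NF-YA cKO and 1005 to 2448 CPM in the controls. The part of these markers in the results below was not tested. Macrophage and leukocyte markers summed to 147 to 290 CPM in NF-YA cKO and 5.90 to 16.1 CPM in the NF-YA fl/fl libraries, with 11 of 12 higher, and their part in the results below was not tested. Xist was at 836 to 852 CPM in NF-YA cKO and 0.306 to 0.475 CPM in the NF-YA fl/fl libraries, and Ddx3y at no more than 3 counts in NF-YA cKO and 80.9 to 88.6 CPM in the NF-YA fl/fl libraries, although the methods describe male mice, so that genotype and this sex-linked difference cannot be told apart. Fewer cells of a type and less RNA per cell cannot be told apart in such bulk samples.

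The members best known from striated muscle fell in NF-YA cKO, while no fall passed the thresholds for Unc45a, Lmod1 or the Hsp90 genes. Of the 10 genes, 6 were lower (Smyd1, Unc45b, Lmod2, Lmod3, Tmod1 and Tmod4, FDR under 0.01 and log2 fold change below -1 with edgeR), where 7.67% of the 17348 genes tested were lower. None was higher by edgeR or by DESeq2, against 4.65% of all genes, although Hsp90aa1 and Hsp90ab1 had a positive log2 fold change with an unadjusted p under 0.05. All NF-YA cKO libraries lay below all NF-YA fl/fl libraries for the same 6 genes (26.2% of all genes did so) and above them for the 2 Hsp90 genes (29.1% of all genes). Together 8 of the 10 were without overlap, as were 55.3% of all genes. Their log2 fold changes had a median of -2.85, against -0.02 for all genes tested.

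**Figure D1:**
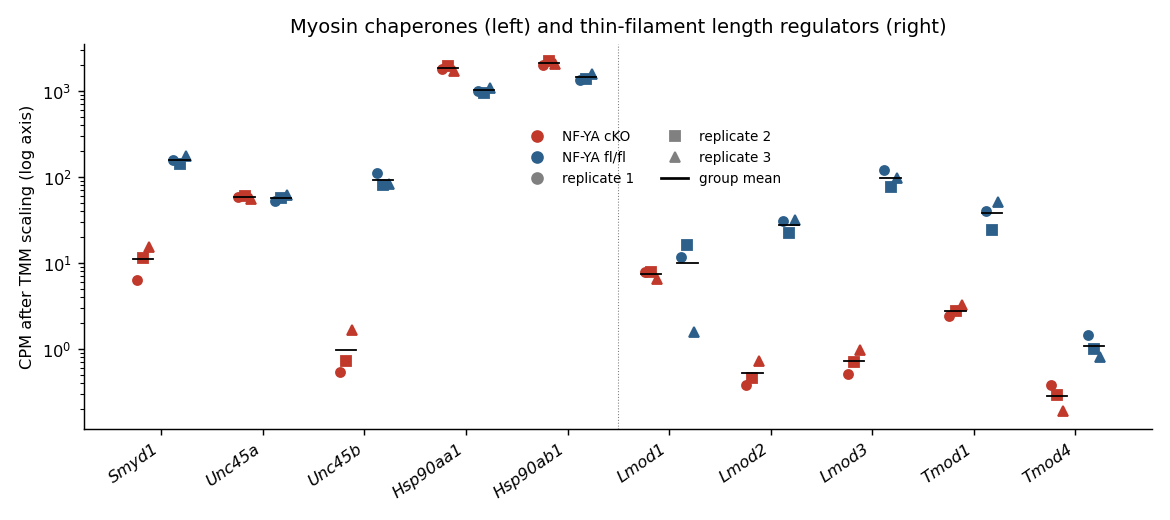
CPM of the 10 genes in each library on a log axis, NF-YA cKO in red and NF-YA fl/fl in blue, with the symbol giving the replicate and the bar the group mean. Lmod3 is at 0.510 to 0.964 CPM in NF-YA cKO and 75.9 to 120 CPM in the NF-YA fl/fl libraries, while the points of Unc45a and of Lmod1 overlap.

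Unc45b (chromosome 11, 82910550 to 82943403, plus strand, GRCm38), the myosin chaperone of striated muscle, fell the most among the chaperones. It was measured at 0.542, 0.724 and 1.65 CPM in NF-YA cKO and at 112, 81.1 and 84.0 CPM in the NF-YA fl/fl libraries. The highest NF-YA cKO library was thus far below the lowest control. The group means of 0.970 ± 0.591 and 92.5 ± 17.2 CPM (SD, n = 3) were 95.3-fold apart (log2 fold change -6.54, SE 0.41, FDR = 0.000147, edgeR), and 105 of all genes tested had a more negative value. The antisense genes Unc45bos and Slfn5os share 255 and 151 exon bases with Unc45b, and their counts were no higher than 47 in any library.

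Smyd1 (chromosome 6, 71213940 to 71322233, minus strand), the muscle methyltransferase, kept more of its level. It was at 6.38, 11.3 and 15.4 CPM in NF-YA cKO and at 157, 141 and 175 CPM in the NF-YA fl/fl libraries, again without overlap. The fall was 14.3-fold, from 157 ± 17.0 to 11.0 ± 4.50 CPM (log2 fold change -3.83, SE 0.32, FDR = 0.000406). Both of its annotated transcripts were lower in every NF-YA cKO library, the 3361-nt form 15.8-fold and the 3322-nt form 14.5-fold in TPM, a relative level that is scaled for transcript length, and their shares overlapped between the genotypes (exact permutation test, two-sided, p = 0.8).

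Unc45a (chromosome 7, 80325292 to 80341005, minus strand), the general paralog, did not pass the test. Its values of 58.4, 60.6 and 55.8 CPM in NF-YA cKO lay among the 52.4, 56.6 and 61.1 CPM of NF-YA fl/fl. The log2 fold change was 0.04 (SE 0.09, FDR = 0.773), with a 95% interval from -0.19 to 0.26. Within the gene the 3263-nt transcript took 89.3% ± 0.884 of the TPM in NF-YA cKO and 85.3% ± 2.62 in NF-YA fl/fl, and a predicted 3728-nt transcript 6.98% ± 1.14 and 12.8% ± 2.85. These shares did not overlap between the genotypes (exact permutation test, two-sided, p = 0.1 for each, the smallest that 3 against 3 libraries allow, 0.167 after adjustment over the 10 transcripts compared).

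The cytosolic HSP90 genes had the highest CPM of the 10 and were measured above the controls in every NF-YA cKO library. Hsp90aa1 (chromosome 12, 110690605 to 110702728, minus strand), the inducible form, was at 1812, 1979 and 1732 CPM in NF-YA cKO and at 996, 956 and 1096 CPM in the NF-YA fl/fl libraries, a 1.81-fold difference (log2 fold change 0.86, SE 0.11, FDR = 0.00199) that passed the FDR but not the fold threshold. Hsp90ab1 (chromosome 17, 45567775 to 45573271, minus strand), the constitutive form, was at 1986, 2207 and 2091 CPM in NF-YA cKO and at 1335, 1387 and 1593 CPM in the NF-YA fl/fl libraries, 1.46-fold apart (log2 fold change 0.54, SE 0.12, FDR = 0.0121), which missed both thresholds. Of the 75-base windows of the Hsp90aa1 transcript, 53.1% also occur in 3 other annotated genes, compared on the same strand only. These genes have no row in the deposited tables, so that reads from those copies could have been counted here. For Hsp90ab1 the share was 0.736%, in 2 other genes, of which 1 has no row and the other has 0 counts in every library.

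Lmod3 (chromosome 6, 97238534 to 97252759, minus strand), the leiomodin of skeletal muscle, had the largest fall of the 10 genes, and only 67 of all genes tested had a more negative value. It was at 0.510, 0.700 and 0.964 CPM in NF-YA cKO and at 120, 75.9 and 96.9 CPM in the NF-YA fl/fl libraries. No library came near those of the other genotype, and the means of 0.725 ± 0.228 and 97.6 ± 22.1 CPM were 135-fold apart (log2 fold change -7.04, SE 0.29, FDR = 5.06e-05).

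Lmod2 (chromosome 6, 24597762 to 24605414, plus strand), best known from heart, was lower in the same way from a smaller control level. Its values were 0.383, 0.458 and 0.729 CPM in NF-YA cKO and 30.4, 22.1 and 31.4 CPM in the NF-YA fl/fl libraries. The fall was 53.5-fold (log2 fold change -5.71, SE 0.29, FDR = 6.58e-05).

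Lmod1 (chromosome 1, 135324807 to 135368065, plus strand), the smooth muscle leiomodin, stood apart from its paralogs. It was at 7.88, 7.77 and 6.44 CPM in NF-YA cKO and at 11.8, 16.3 and 1.56 CPM in the NF-YA fl/fl libraries, where replicate 3 was below every other library and the other 2 were above. The log2 fold change was -0.43 (SE 0.68, FDR = 0.651), with a 95% interval from -2.05 to 1.20, and without NF-YA fl/fl replicate 3 it was -0.94 (FDR = 0.00564), still short of the fold threshold. Without NF-YA fl/fl replicate 2 it was 0.14.
Among the genes nearest to it by profile was Pdgfra, the surface marker of fibro-adipogenic progenitors. Pdgfra was at 104, 77.7 and 84.1 CPM in NF-YA cKO and at 132, 147 and 21.6 CPM in the NF-YA fl/fl libraries, low in the same control library. The summed fibro-adipogenic markers of that library (1069 CPM) were also below the 1930 to 2833 CPM of the other 5. Of the 12 smooth muscle and pericyte markers, 9 were also lowest in that library among the controls, such as Myh11 (0.712 CPM against 6.31 and 12.8) and Tagln (64.8 CPM against 346 and 349). The sum of the 12, which Acta2 dominates, was 1352 to 1675 CPM in NF-YA cKO and 2149 to 2850 CPM in the controls. Without Acta2 it was 431 CPM in that library, 1111 and 1210.2 CPM in the other controls and 716 to 868 CPM in NF-YA cKO. The part of these cells in the Lmod1 values was not tested.

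Tmod1 (chromosome 4, 46038935 to 46116032, plus strand), the pointed-end cap, fell 13.7-fold. It was at 2.39, 2.75 and 3.22 CPM in NF-YA cKO and at 39.8, 24.3 and 50.6 CPM in the NF-YA fl/fl libraries. The control libraries were spread over a wider range than those of NF-YA cKO but did not reach them (log2 fold change -3.77, SE 0.30, FDR = 0.000353).
The 2 main transcripts differed in this. The curated 2871-nt form was estimated at 0.60, 0.27 and 0.68 TPM in NF-YA cKO and at 16.06, 11.02 and 15.86 TPM in NF-YA fl/fl, 27.7-fold apart, and its share of the gene was 43.4% ± 16.3 against 91.1% ± 4.69. The predicted 2540-nt form was at 0.46, 0.81 and 0.72 TPM in NF-YA cKO and at 0.25, 1.20 and 1.66 TPM in NF-YA fl/fl, with overlapping levels. The shares of both forms did not overlap between the genotypes (exact permutation test, two-sided, p = 0.1, adjusted 0.167). Tmod1 shares 1287 exon bases with Tstd2, which lies on the opposite strand with 1415 to 2316 counts a library, and the strand setting of the counting is not given in the sources used here.

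**Figure D2:**
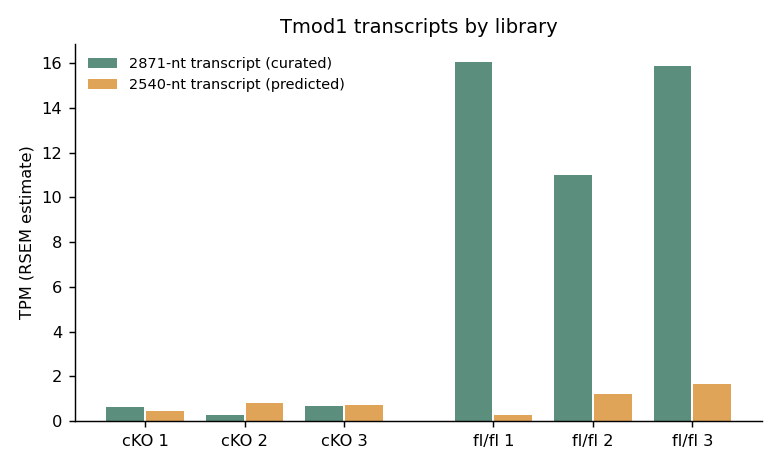
RSEM estimates in TPM of the 2 main Tmod1 transcripts in each library. The 2871-nt form (green) is at 11.02 to 16.06 TPM in NF-YA fl/fl and at 0.27 to 0.68 TPM in NF-YA cKO, while the 2540-nt form (orange) stays at or below 1.66 TPM in all libraries.

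Tmod4 (chromosome 3, 95124476 to 95129209, plus strand), the skeletal muscle tropomodulin, was near the limit of detection. It was at 0.383, 0.290 and 0.188 CPM in NF-YA cKO, from 8 to 12 counts a library, and at 1.45, 1.01 and 0.814 CPM in the NF-YA fl/fl libraries, from 24 to 38 counts. The levels did not overlap and were 3.81-fold apart (log2 fold change -1.93, SE 0.39, FDR = 0.00851). The call was lost in 7 of 14 alternative fits (FDR up to 0.0404), among them every fit without 1 library except that without NF-YA fl/fl replicate 3. In NF-YA cKO the curated 1241-nt transcript was estimated at 0, 3.13 and 1.41 counts, and the rest went to a predicted 3786-nt form. In NF-YA fl/fl these forms were at 9.4 to 17.33 and 14.57 to 19.25 counts.

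Per length, the order of the genes changed between the genotypes. In NF-YA fl/fl the Hsp90 genes led (694.5 TPM for Hsp90ab1 and 428 TPM for Hsp90aa1 on average), followed by Smyd1 (55.7 TPM), Lmod3 (54.1), Unc45b (31.0), Unc45a (20.3), Lmod2 (17.3), Tmod1 (15.7), Lmod1 (3.26) and Tmod4 (0.72). The ranges of Smyd1 and Lmod3, of Unc45b and Unc45a, of Unc45a and Lmod2, and of Lmod2 and Tmod1 overlapped. Those of Lmod1 (0.39 to 5.89 TPM) and Tmod4 (0.40 to 0.98 TPM) did so too. In NF-YA cKO Unc45a (19.7 TPM) came next after the Hsp90 genes (952 and 729 TPM), followed by Smyd1 (3.67), Lmod1 (2.08) and Tmod1 (1.18). There the ranges of Smyd1 and Lmod1 overlapped, and Lmod3 (0.383), Unc45b (0.31) and Lmod2 (0.31) overlapped one another above Tmod4 (0.11).

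The make-up of each paralog family was then compared as shares of its summed TPM, which do not depend on scaling between libraries. Unc45b made up 66.6%, 57.2% and 56.3% of the Unc45 transcripts in NF-YA fl/fl and 0.893%, 1.11% and 2.65% in NF-YA cKO. Lmod3 made up 74.7%, 69.3% and 73.0% of the leiomodins in NF-YA fl/fl and 9.69%, 13.2% and 18.7% in NF-YA cKO, where Lmod1 held 82.0%, 77.1% and 65.8%. Lmod3 was the main leiomodin of every NF-YA fl/fl library and Lmod1 that of every NF-YA cKO library, while the family sum was 61.5 to 88.8 TPM in NF-YA fl/fl and 2.58 to 2.89 TPM in NF-YA cKO.
Tmod1 made up 42.1%, 29.3% and 61.8% of the tropomodulins in NF-YA fl/fl and 2.97%, 3.57% and 4.13% in NF-YA cKO. There the ubiquitous Tmod3 held 90.8% to 91.9%, against 34.2% to 65.2% in NF-YA fl/fl. The sum of the 4 tropomodulins, 30.3 to 35.7 TPM in NF-YA cKO, lay within the 28.7 to 43.0 TPM of NF-YA fl/fl. The Hsp90 pair differed by 5.22 percentage points on average, with Hsp90aa1 at 44.3%, 43.9% and 41.9% in NF-YA cKO and 39.4%, 37.5% and 37.5% in NF-YA fl/fl. Each of the 6 shares compared (Unc45b, Hsp90aa1, Lmod1, Lmod3, Tmod1 and Tmod4) was without overlap, at the exact permutation limit of p = 0.1 (two-sided, 0.1 after adjustment over the 6).
Windows of 75 bases were compared on the same strand only, so that the opposite-strand genes overlapping Unc45b and Tmod1 were not covered. No such window of the Unc45a, Unc45b or leiomodin transcripts occurred in another annotated gene on that strand. Of those of the Tmod1 transcript 2.50% occurred in 46 other genes, among them Spc24 and Ilf2, at up to 2111 and 4643 counts a library, where Tmod1 had 75 to 137 counts in NF-YA cKO. The aligned coding sequences had 66.4% identical bases between Unc45a and Unc45b, 64.1% to 68.0% among the leiomodins, 64.3% between Tmod1 and Tmod4 and 76.6% between the Hsp90 genes.

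**Figure D3:**
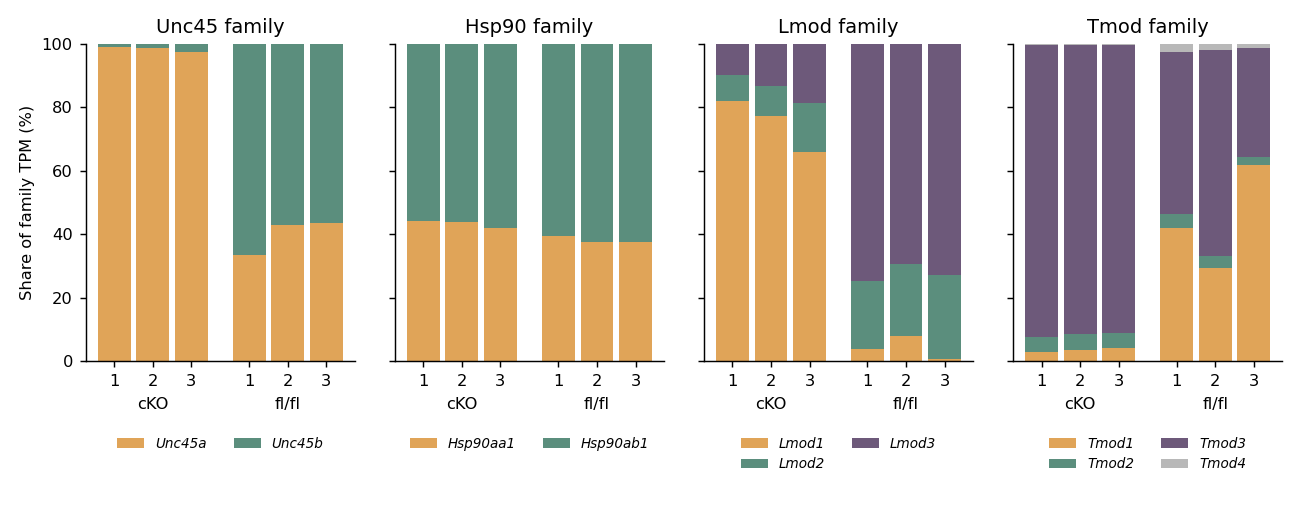
Stacked bars of each gene's share of its family's summed TPM, in percent, for the 3 libraries of each genotype. In NF-YA cKO Unc45a, Lmod1 and Tmod3 take most of their families, while Hsp90aa1 stays between 37.5% and 44.3% in all libraries.

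The regulators were set beside the transcripts of the filaments they serve. Summed over the sarcomeric myosin heavy chains, the level was 1211 to 1786 TPM in NF-YA fl/fl and 2.36 to 6.84 TPM in NF-YA cKO. Per 1000 TPM of these, Unc45b was at 19.1 to 20.8 TPM in NF-YA fl/fl and at 51.5 to 80.5 TPM in NF-YA cKO, and Smyd1 at 30.9 to 42.4 TPM and at 776 to 966 TPM. The mRNAs of both chaperones were thus higher relative to the mRNA of their client in every NF-YA cKO library, Smyd1 by the wider margin. Both chaperone mRNAs had themselves fallen, and Unc45b had 17 to 70 counts a library in NF-YA cKO. Protein was not measured in these libraries.
Per 1000 TPM of the actins Acta1 and Actc1, Lmod3 was at 17.6, 16.1 and 14.7 TPM in NF-YA fl/fl and at 17.9, 17.9 and 14.8 TPM in NF-YA cKO, overlapping although both the leiomodin and the actins had fallen over 100-fold (exact permutation test, two-sided, p = 0.5). Tmod4 was at 0.131 to 0.260 TPM in NF-YA fl/fl and at 2.23 to 7.69 TPM in NF-YA cKO, where it rested on 8 to 12 counts a library. For Unc45b, Smyd1 and Tmod4 the ratios did not overlap between the genotypes (exact permutation test, two-sided, p = 0.1 each).

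**Figure D4:**
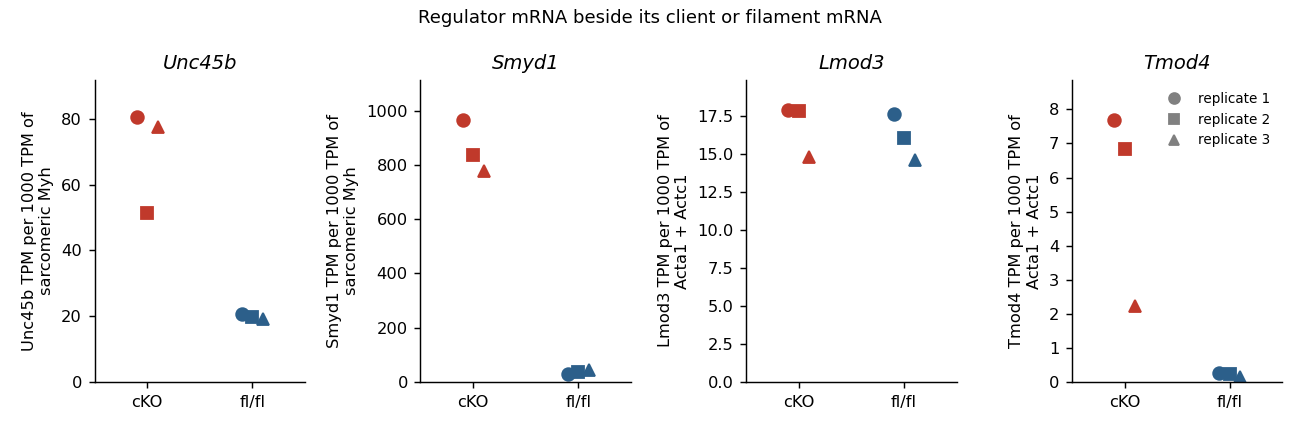
TPM of each regulator per 1000 TPM of sarcomeric myosin heavy chain (Unc45b, Smyd1) or of Acta1 and Actc1 (Lmod3, Tmod4), by library, on axes that start at 0. The NF-YA cKO libraries (red) are above the NF-YA fl/fl libraries (blue) for Unc45b, Smyd1 and Tmod4 and overlap them for Lmod3.

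Among the other genes of these pathways, all 9 sarcomeric myosin heavy chains tested were lower (median log2 fold change -6.61), with Myh8, the perinatal form, at -8.96, Myh1 at -8.81, Myh13 at -4.99 and Myh2 at -3.59. Of 14 thin filament components 11 were lower and none higher (median -4.90), with Actc1, the cardiac actin, at -8.06 and Tnnc2, the fast troponin C, at -7.65. The 3 that were not lower were Tpm1 (0.11), Tpm3 (0.65) and Nebl (1.68, FDR = 0.0221).
Klhl41 (-5.86) and Klhl31 (-5.37) were lower, as was Klhl40 (-4.76), which is known to stabilise LMOD3 and nebulin, in a list of 5 tested genes with a median of -4.76. The remaining 2 were Cul3, at 0.23, and Kbtbd12, at -1.65 (FDR = 0.0235). Of 16 other actin-end regulators only Xirp1 (-4.27), Fhod3 (-2.69) and Xirp2 (-2.53) were lower, all of striated muscle, and none was higher (median 0.18), with Tmod3 at 0.79 (FDR = 0.0336) and the cofilin Cfl1 at 0.79 (FDR = 0.00189).

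General chaperones had mostly positive log2 fold changes of small size. None of the 15 subunits and partners of the CCT chaperonin and prefoldin, which fold actin and tubulin, passed the fold threshold, but 14 had a positive log2 fold change (median 0.58), with Cct6a at 0.73, Tcp1 at 0.69, Pfdn2 at 0.02 and Pdcl3 at -0.06. By FDR alone 10 of them passed 0.01, as did 20.3% of all genes in either direction. Over all genes, 8498 of 17348 were positive. Of 30 HSP90 co-chaperones and heat shock factors, the immunophilins Fkbp5 (1.12) and Fkbp4 (1.02) were higher and Itgb1bp2 (-5.74), the muscle co-chaperone melusin, was lower (median 0.28), with Hspa1b at -1.01 (FDR = 0.0698). In the SMYD list of 6 genes Smyd4 was higher (1.25), while Smyd5 was at 0.69, Smyd2 at 0.06 and Smyd3 at 0.03. The lists were judged by the same thresholds as above, against 7.67% of all genes lower and 4.65% higher.

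**Figure D5:**
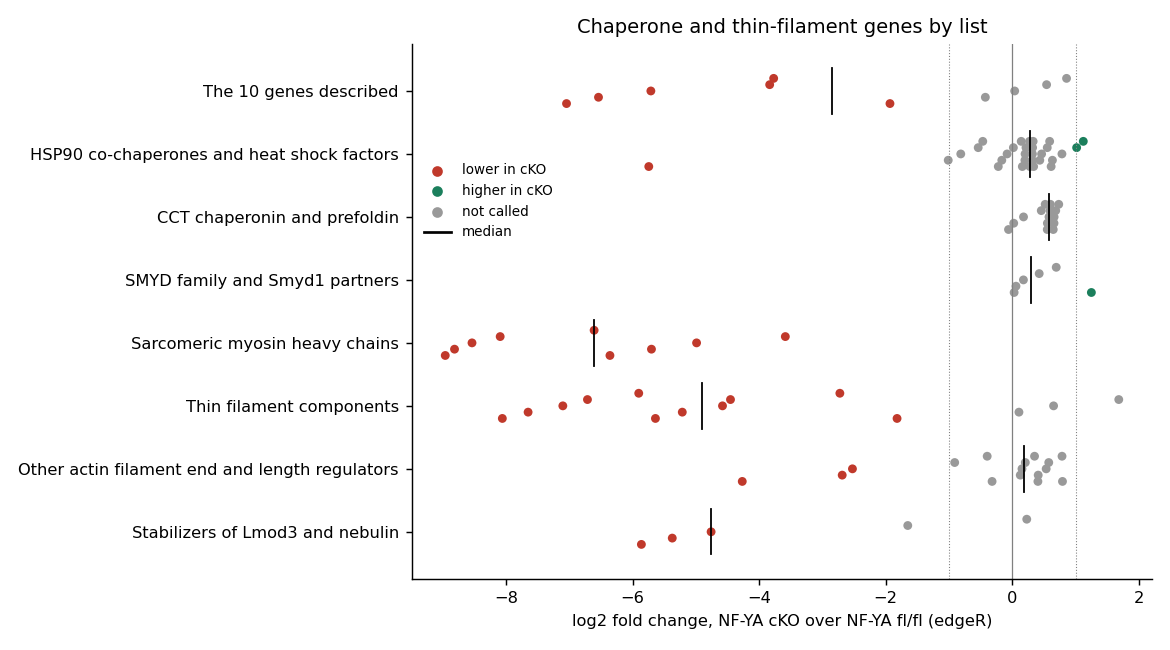
edgeR log2 fold changes of NF-YA cKO over NF-YA fl/fl for the 10 genes and 7 lists of related genes, each point a gene (red lower, green higher, grey not called), with black bars at the list medians and dotted lines at -1 and 1. Myosin heavy chains and thin filament components lie far left, the CCT chaperonin and HSP90 co-chaperones near 0 or slightly to the right.

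Genes with the most similar profiles were sought among 9457 genes, by the distance between log2 CPM values over the 6 libraries after centring each gene. Nearest to Unc45b was Acta1, the skeletal actin (distance 0.356), and Myom1 was also among the nearest. Nearest to Lmod3 was Col25a1 (0.246), followed by Tnnc1 and Atp2a1, the fast calcium pump. Smyd1 was closest to Neurl1a, Trim54 and Trim55, Tmod1 to Akap6, Trim55 and Ccdc141, and Lmod2 to Abcc9, Klhl31 and Neb. Tmod4 had no gene as close, with Slco3a1 at 0.571, Tnfrsf19 and Adamts5. The general members were nearest to genes of small range, Unc45a to Dgke, Vcp and Phkg2, Hsp90aa1 to Ltv1 and Rsl1d1, and Hsp90ab1 to Sf3b2, Pop4 and Ddx10. These profiles share the 6 libraries and mainly record the difference between the genotypes.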

How the data were processed

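Per the labels, the authors aligned reads with Bowtie2 and quantified them with RSEM (mm10). Libraries were stranded total RNA libraries from 500 ng. The deposited expected counts are neither normalized nor filtered, and RSEM splits reads shared between genes. The deposited TPM values are scaled for length by the authors. The percent of each gene's TPM per transcript was also deposited by the authors. Here expected counts were rounded, and the 17348 of 35976 genes whose count exceeded 10 in 2 or more libraries entered edgeR 4.0.16 (TMM, quasi-likelihood, Benjamini-Hochberg adjustment) in R 4.3.3, called at FDR below 0.01 with a log2 fold change past 1 (intervals are 95%). The SE is the log2 fold change over the square root of F. Shares, ratios and transcripts were compared by exact permutation tests (scipy 1.17.1). The labels do not state that replicates are separate animals, and p-values measure the spread between these libraries. The fit was tested on simulated data. Alternatives were DESeq2 1.42.0, its size factors, filterByExpr, no filter, unrounded counts, limma 3.58.1 on log2(TPM + 1) and log2(TPM + 0.1), an FDR under 0.05, the replicate number as a block, and leaving out each library. Coordinates come from the GENCODE annotation of GRCm38. Named are the 10 genes, the 2 highest and 2 lowest genes of each list, the 3 genes nearest each of the 10 (mean of at least 10 CPM), label checks and markers. Some of the nearest genes are not reported here. Klhl40, Tpm1, Xirp2, Spc24 and Ilf2 fall outside this rule and were named after their values were seen. The genes and lists were chosen with earlier results of these data known. Erythroid, endothelial and Schwann markers summed to 1.13 to 1.88, 13.2 to 18.1 and 41.5 to 45.9 CPM in NF-YA cKO and to 0.688 to 1.31, 4.17 to 8.15 and 110 to 153 CPM in NF-YA fl/fl. Erbb3 (9.11 against 129 CPM on average) dominated the Schwann sum of the controls. Leaving Erbb3 out reversed the order, with 32.5 to 35.9 CPM for NF-YA cKO and 8.03 to 11.7 CPM for the controls. Among these 6 Schwann genes, 4 were called higher and 1, Erbb3, lower.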

Additional observations from a re-analysis of the deposited data

How the results depend on the processing

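The number of the 10 genes lower was 5 or 6 and the number higher 0 in every alternative. Smyd1, Unc45b, Lmod2, Lmod3 and Tmod1 kept their call in all 14 alternative fits. The cause of the changes below was not tested. Over all genes, limma on log2(TPM + 1) gave 704 lower and 231 higher, limma on log2(TPM + 0.1) 361 higher, and an FDR under 0.05 gave 2025 lower. Leaving out 1 library gave 523 to 1684 lower and 177 to 890 higher. The smallest values came without NF-YA cKO replicate 2. Without NF-YA cKO replicates 1 or 3 and without NF-YA fl/fl replicate 1 the lower genes numbered 643, 664 and 819 and the higher genes 283, 279 and 298. With the replicate block 5 of the 10 genes were lower (Tmod4 FDR = 0.0130), among 947 lower and 625 higher genes. The numbers come from the labels only, and same-numbered libraries deviated together with r = 0.267, -0.140 and 0.0793, so they were not taken as pairs. Unc45a changed sign in limma on log2(TPM + 1) (-0.030) and on log2(TPM + 0.1) (-0.031), and lay between -0.028 and 0.090 with 1 library left out. Lmod1 changed sign with the replicate block (0.014) and lay between -0.94 and 0.14 with 1 library left out. Expected counts in place of TPM, which do not correct for length, moved the difference in share (cKO minus fl/fl, percentage points) to 77.8 for Lmod1, -63.2 for Lmod3 and -0.767 for Tmod4, and the difference in ratio to 28.4 for Unc45b, 445 for Smyd1 and 12.1 for Tmod4. In the 7 fits that lost the Tmod4 call its log2 fold change was -0.62 (limma on log2(TPM + 1)) or between -1.69 and -2.20. Tmod4 had 8 to 38 counts a library, and 3 libraries a group limit every exact test to p = 0.1.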
